A study of Mus musculus with 4 samples.

Results

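Among 44554 cells captured from digested pancreatic tumors in 4 libraries, 114 carried the RNA of pancreatic acinar cells, and 100 of these came from the D-CAN library. A cell was counted as an acinar-marker cell when it had at least 200 detected genes, at least 3 of the 6 genes Prss2, Cela1, Cpa1, Pnlip, Ctrb1 and Cel, and at least 1% of its transcripts from these 6. Transcripts were counted as unique molecular identifiers (UMIs), where each UMI stands for 1 captured RNA molecule read at its 3′ end, so no correction for gene length was needed. The cells were thus chosen by the measured UMIs of these 6 genes, whose values are therefore given only as a description. The other acinar genes were measured in the same cells and are likewise described without a test.

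Acinar cells are the exocrine cells of the pancreas. They make digestive proenzymes, pack them with accessory proteins in zymogen granules and release them into the ducts when cholecystokinin or acetylcholine reaches them. A large part of their mRNA codes for a few secreted enzymes, which are kept on by the transcription factors Ptf1a, Rbpjl, Nr5a2 and Bhlha15. In injured pancreas, and beside tumors, acinar cells are known to switch on Reg family genes and may lose enzymes while gaining duct genes, a change called acinar-to-ductal metaplasia.

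The tumors grew from KPC FC1242 cells, a mouse pancreatic ductal adenocarcinoma line, after injection into the host's pancreas, so normal pancreas lay beside each graft. All hosts were obese males fed a high-fat diet for 24 weeks. The labels give their age as 7 months and the study's methods as 12 months. Pdgfrb-TK mice on C57BL/6, in which the Pdgfrb promoter drives a thymidine kinase, received PBS (Pdgfrb-TK/PBS) or ganciclovir (GCV), which kills cells that express the transgene, on alternate days over 25 days at a dose of 50 mg/kg (Pdgfrb-TK/GCV). C57BL/6 mice (C57BL/6J in the study's methods) received D-CAN at 30 mg/kg on the same schedule, or PBS (WT/PBS). D-CAN is a peptide that homes to adipose stromal cells and carries a sequence that triggers apoptosis. Each condition was 1 library made from the pooled suspensions of several tumors, so a difference between libraries has no replicate check, no test was possible, and animal, tumor, digestion and treatment cannot be told apart. The intervals below are 95% intervals that cover counting error only.

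The 4 libraries held 10495 to 12280 barcodes and 84020317 to 155408336 UMIs, and the median kept cell had 4514.5 to 7421 UMIs. The D-CAN library stood apart in quality: 608 of its barcodes had fewer than 200 genes, against 0 to 30 in the other libraries, and 29.3% of its kept cells had over 20% mitochondrial UMIs, against 4.48% to 18.2%. Between 26 and 42 barcodes were shared by each pair of libraries, and 0 of them were acinar-marker cells.

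Acinar-marker cells made up 0.983% of the kept cells of the D-CAN library (100 of 10178, Clopper-Pearson interval 0.800% to 1.19%). They were 0.0570% in Pdgfrb-TK/GCV (7 of 12280, 0.0229% to 0.117%) and 0.0669% in Pdgfrb-TK/PBS (7 of 10469, 0.0269% to 0.138%). WT/PBS had 0 of 11627, which allows a share of up to 0.0258% at 3 counts. The D-CAN interval lay above those of the other libraries, and the Pdgfrb-TK libraries overlapped each other. As a ratio of shares, D-CAN was 14.7-fold above Pdgfrb-TK/PBS (6.87 to 37.5), 17.2-fold above Pdgfrb-TK/GCV (8.06 to 44.0), and at least 38.1-fold above WT/PBS when the latter is set to 3 cells. With a minimum of 500 genes the count was 25 of 7867 in D-CAN, 3 in Pdgfrb-TK/GCV, and 0 in each PBS library.

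The values on either side of the limits ran on without a gap. The 3 D-CAN cells just inside the 1% limit had 1.01%, 1.02% and 1.03% of their UMIs on the 6 genes, and the 3 just outside had 0.998%, 0.994% and 0.952%. In all, 194 D-CAN cells had at least 3 of the genes but stayed under 1%. A further 29 D-CAN barcodes met the gene rule with fewer than 200 genes, and the other libraries had 0 such barcodes. These 29 had a median of 20.6% of UMIs on the 6 genes, more than the 12.7% of the counted cells, with a median of 181 genes and 0.482% mitochondrial UMIs. Counting them would bring the D-CAN library to 129 of 10786 barcodes, or 1.20%.

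**Figure D1:**
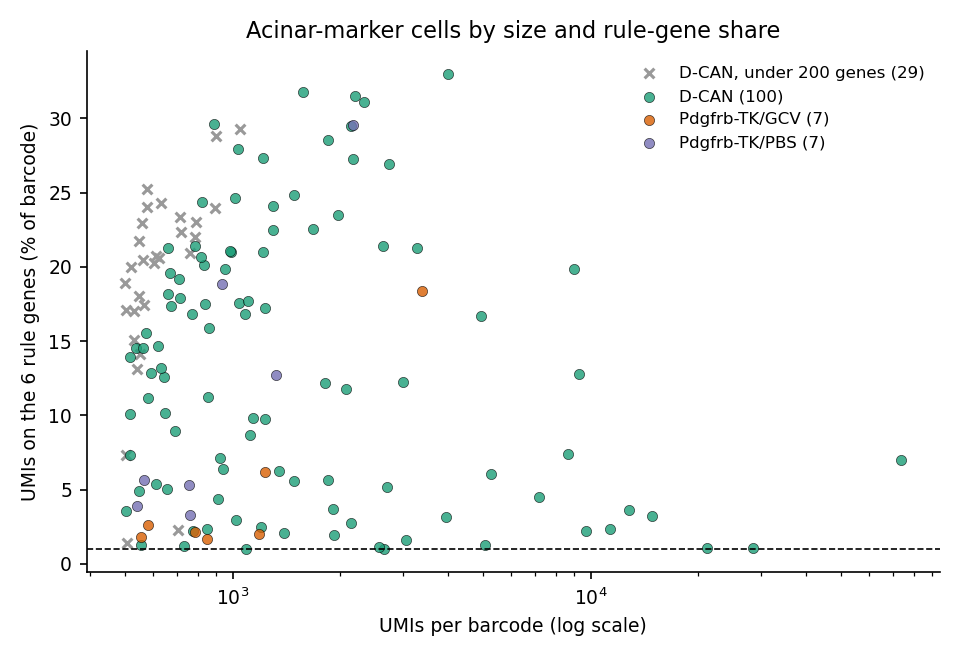
Each point is 1 barcode, with its UMIs on a log axis and the percentage of them on the 6 rule genes; colors mark the library, crosses the 29 D-CAN barcodes under 200 genes, and the dashed line the 1% limit. Most D-CAN cells lie between 504 and 5000 UMIs with 13 above, and a single barcode stands at 73682 UMIs.

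The acinar-marker cells of the D-CAN library were small and had few genes. Their UMIs ranged from 504 to 73682 with a median of 1128, and their genes from 200 to 8011 with a median of 300.5, whereas the other 10078 kept cells of the library had medians of 4596.5 UMIs and 1773 genes. Of the 100 cells, 62 had under 1500 UMIs and 13 over 5000. When each cell was thinned to 500 UMIs, the acinar-marker cells still had fewer genes (median 182, quartiles 151 and 221) than 1000 sampled other cells (median 350, quartiles 254 and 375). A few enzyme genes took a large part of the UMIs: in 56 of the 100 cells, over 25% of UMIs fell on the 42 enzyme, granule and Reg genes described below, and in 15 cells over 50%.

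Mitochondrial RNA was low in many of them. The median mitochondrial share was 1.22% in the acinar-marker cells, with 46 of 100 cells under 1% and 20 cells over 20%, and 5.16% in the other cells. Other cells of like size differed in the opposite direction: the 1707 with under 1500 UMIs had a median of 32.8%, against 0.995% in the 62 acinar-marker cells under that size. Malat1, a long noncoding RNA kept in the nucleus, was seen in 72 acinar-marker cells and in 94.1% of the others. In cells under 1500 UMIs it was seen in 69.4% of the acinar-marker cells and 83.1% of the others. In summed UMIs, all 4 nuclear retained RNAs of the lists lay within 2-fold of the other cells, with a median log2 ratio of -0.48 (Malat1 -0.82, Kcnq1ot1 -0.58, Neat1 -0.39 and Meg3 -0.09). So did 2740 of the 3747 genes that passed the filter described below. These sums give most weight to the largest barcodes. Per cell, the median Malat1 share was lower, at 0.125% of UMIs against 0.840% in the others. In cells under 1500 UMIs it was 0.131% against 0.306%. The part that these features play in the results below was not tested.

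The 6 genes of the rule held 29120 UMIs, or 8.73% of the 333678 UMIs of the D-CAN acinar-marker cells. Ctrb1, a chymotrypsinogen, was seen in all 100 cells at 54430 counts per 1e+06 UMIs (CPM, interval 53641 to 55227), against 24.997 CPM in the other cells. Prss2, a trypsinogen, was also seen in all 100, at 22585 CPM against 11.3. Cpa1, a carboxypeptidase proenzyme, reached 4208 CPM in 94 cells against 2.03. Pnlip, the pancreatic triglyceride lipase, reached 3231 CPM in 73 cells against 1.76. Cel, the bile salt-activated lipase, reached 1439 CPM in 73 cells against 0.789. These 5 genes were 1822-fold to 2177-fold higher in the cells they had chosen. Cela1, an elastase, differed from them: it reached 1379 CPM in 71 cells against 18.2 CPM in the others, a 75.6-fold difference (68.2 to 83.6).

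The stretch upstream of the start site was read from RefSeq (GRCm38.p6) for 4 of these genes, Cela1 and 3 with much larger ratios. Each is the 250 bases before the start, 5′ to 3′ on the gene's strand, and the capitals mark the letters TTCCCA (the core that RBPJ-type factors such as Rbpjl read), CACCTG and CAGCTG (E-boxes, which bHLH factors such as Ptf1a read), each searched on both strands, and TATAAA on the gene's strand. The Ctrb1 stretch is chr8:111691011-111691260 (minus strand), that of Prss2 is chr6:41521526-41521775 (plus), that of Cel is chr2:28563404-28563653 (minus) and that of Cela1 is chr15:100687921-100688170 (minus).
Ctrb1: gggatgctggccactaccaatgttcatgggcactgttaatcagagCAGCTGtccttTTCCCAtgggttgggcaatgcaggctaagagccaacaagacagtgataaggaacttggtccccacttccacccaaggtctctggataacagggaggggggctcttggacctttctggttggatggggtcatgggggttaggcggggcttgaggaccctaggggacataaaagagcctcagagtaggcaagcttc
Prss2: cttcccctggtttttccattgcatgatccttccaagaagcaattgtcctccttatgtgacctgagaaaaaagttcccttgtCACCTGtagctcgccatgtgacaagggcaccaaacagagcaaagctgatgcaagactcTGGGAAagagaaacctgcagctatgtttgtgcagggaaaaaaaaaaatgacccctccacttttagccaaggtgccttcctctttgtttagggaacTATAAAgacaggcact
Cel: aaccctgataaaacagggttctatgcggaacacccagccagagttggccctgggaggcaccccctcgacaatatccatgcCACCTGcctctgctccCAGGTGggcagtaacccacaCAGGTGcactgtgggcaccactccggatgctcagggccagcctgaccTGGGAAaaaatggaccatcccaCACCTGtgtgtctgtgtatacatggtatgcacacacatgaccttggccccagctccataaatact
Cela1: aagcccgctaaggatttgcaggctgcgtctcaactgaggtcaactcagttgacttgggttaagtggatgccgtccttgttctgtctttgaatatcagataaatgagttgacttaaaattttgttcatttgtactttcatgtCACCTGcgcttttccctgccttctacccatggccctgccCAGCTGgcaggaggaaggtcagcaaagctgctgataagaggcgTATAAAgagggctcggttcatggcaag
TTCCCA was found in 5 of the 6 rule genes, with Cela1 the exception, in 15 of the 30 other enzyme, granule and Reg genes that had a sequence (39 were looked for), and in 21.5% of the 27025 genes with a sequence. An E-box of either form was found in 4 of 6, 18 of 30 and 27.4%. Both an E-box and TTCCCA were present in 3 of 6, 8 of 30 and 6.20%. TATAAA was found in 3 of 6, 10 of 30 and 8.12%. These matches describe letters in a short window and do not show a bound site. Their bearing on the ratios was not tested. In the acinar-marker cells Cela1 (1379 CPM) stood near Cel (1439 CPM). Their ratios differed mainly through the other cells, at 18.2 CPM for Cela1 and 0.789 CPM for Cel.

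Across all genes, 3747 passed the filter on low values (at least 100 UMIs in the acinar-marker and other cells of the D-CAN library together, and at least 50 CPM in the higher of them). Of these, 105 (2.8%) were at least 2-fold higher in the acinar-marker cells and 902 (24.1%) at least 2-fold lower, by the log2 ratio of CPM with 1 CPM added to each. The median gene had a log2 ratio of -0.64, and list values are best read against that level. The rule genes were 6 of the 105, which the choice of cells fixed. Outside the rule, the enzyme, granule and Reg lists supplied 25 of 99 higher genes, 24 of 30 genes at least 8-fold higher, and 24 of 26 at least 64-fold higher. For 44 of the 105, a single barcode held over 50% of the UMIs in the acinar-marker cells.

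The proteases outside the rule were high in the acinar-marker cells and low in the others, as those inside it were. Of 13 genes listed, 8 passed the filter and all 8 were at least 2-fold higher, with a median log2 ratio of 10.38. Try5, a trypsinogen, stood at 18722 CPM against 9.66, a 1938-fold difference (1824 to 2062), and was seen in 99 cells. Cela2a, a pancreatic elastase, stood at 5059 CPM in 90 cells against 2.25. Cpb1, a carboxypeptidase that cuts after basic residues, stood at 4903 CPM in 90 cells against 2.28, and Cela3b, another elastase, at 4753 CPM in 94 cells against 2.57. Try4 reached 5221 CPM, Ctrl, a chymotrypsin-like protease, 1990 CPM, and Klk1, tissue kallikrein, 1765 CPM. The list also had quiet members: Prss1 had 3 UMIs, all in a single cell, Ctrc 8 UMIs, and Cela3a 0. The trypsinogens Try4, Try5, Try10, Prss1, Prss2 and Prss3 lie together on chromosome 6 from 41302269 to 41525079 (mm10) and are close copies of each other, so reads may be divided unevenly among them. The same holds for 2210010C04Rik, a trypsinogen gene outside the lists, at 9156 CPM in 96 cells against 4.24.

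Lipid-digesting enzymes and the pancreatic ribonuclease followed the proteases. Of the 11 lipase, amylase and nuclease genes present in the files, 5 passed the filter and all 5 were higher, with a median log2 ratio of 9.49. Pnliprp1, a lipase-related protein, stood at 7178 CPM in 96 cells against 2.99, which is 2397-fold (2152 to 2675). Clps, the colipase that anchors Pnlip to fat droplets, stood at 3632 CPM in 86 cells against 4.05. Rnase1 reached 2065 CPM in 88 cells. Pla2g1b, the pancreatic phospholipase A2, was lower and less restricted, at 342 CPM in 40 cells against 4.08.

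Amylase, usually among the strongest acinar transcripts, was near 0. Amy2a5 had 28 UMIs (83.9 CPM) in 18 of the 100 cells, Amy2a2 had 4 UMIs, Amy2a4 had 1, and Amy2a1 and Amy2a3 had 0. The pancreatic amylase genes are near-identical copies on chromosome 3, and reads that map equally well to several copies are usually left out of a gene's count, so their level is uncertain. Amy1, which is also expressed outside the pancreas, stood at 27.0 CPM in the acinar-marker cells (9 UMIs) and 4.66 CPM in the others, a 5.79-fold ratio (2.63 to 11.1).

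Zymogen granule genes were high as well. Of 8 listed, 7 passed the filter and 6 were higher, with a median log2 ratio of 9.19. Zg16, a lectin of the granule membrane, stood at 1834 CPM in 76 cells, Spink1, the trypsin inhibitor stored with the enzymes, at 1486 CPM in 80, Sycn, syncollin, at 1421 CPM in 71, and Gp2, the major granule membrane glycoprotein, at 785 CPM in 63, each against less than 1 CPM in the other cells. Dmbt1 and Tff2, secreted proteins that mucous epithelia also make, were less restricted. Dmbt1 stood at 2472 CPM against 365 (log2 ratio 2.76), and Tff2 at 581 CPM against 332 (log2 ratio 0.81, within 2-fold).

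All 6 Reg family genes passed the filter and all 6 were higher, with a median log2 ratio of 10.09. Reg genes code for secreted C-type lectins, which acinar cells make in larger amounts during injury. Reg1 stood at 13007 CPM in 99 of the 100 cells against 8.59 CPM in the others, Reg3b at 12929 CPM in 99 against 7.25, and Reg2 at 10531 CPM in 98 against 4.85. Reg2 had the highest log2 ratio outside the rule, 10.81 (2170-fold, 1993 to 2367). Reg3a followed at 1687 CPM in 76 cells, Reg3g at 1004 CPM in 66, and Reg3d at 357 CPM in 53. Together the Reg genes held 3.95% of the cells' UMIs, close to the 4.34% of the 13 other proteases. They lie side by side on chromosome 6 from 78370657 to 78468872 (mm10), a stretch of 98.2 kb.

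The 15 genes with the highest log2 ratios outside the rule, with 1 CPM added to each level, were Reg2, Pnliprp1, Try5, 2210010C04Rik, Reg3b, Cela2a, Cpb1, Reg1, Try4, Cela3b, Rnase1, Klk1, Ctrl, Zg16 and Reg3a. Without the added CPM, their ratios lay between 1514-fold and 2401-fold, and their levels in the other cells between 0.735 and 9.66 CPM. Some lower genes had larger plain ratios, such as Cuzd1, a zymogen granule membrane protein, at 2849-fold with 103 UMIs. Each of the 15 was seen in 74 to 99 of the 100 cells. Without the largest barcode their log2 ratios were 9.84 to 10.96, against 9.78 to 10.81 with it.

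Regulators of the acinar program were barely captured. Of 10 transcription factor genes, 4 passed the filter. Ptf1a, a master regulator of acinar fate, had 5 UMIs in 4 acinar-marker cells and 0 UMIs in the 10078 other cells. Rbpjl, its acinar-specific partner, had 5 UMIs in 3 cells against 26 in the others, and Bhlha15 (Mist1) and Nr5a2 had 1 UMI each. Xbp1, which drives the secretory apparatus, stood at 171 CPM in 28 cells against 79.8 (log2 ratio 1.09). Gata4 had a log2 ratio of 1.51, but its 20 UMIs lay in 8 cells with 50% in a single one, and the ratio was -0.01 when at least 5% of UMIs on the rule genes were required. Foxa2 was lower, at 23.98 CPM against 63.4 (log2 ratio -1.37), and Gata6 lay within 2-fold (-0.79).

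Receptors and exocytosis genes gave a similar picture. Of 14 genes, 4 passed the filter, 0 were at least 2-fold higher and 3 were lower, beside 2.8% and 24.1% of all genes. Cckar, the cholecystokinin receptor of acinar cells, had 10 UMIs in 7 acinar-marker cells and 4 UMIs in all other cells, a 968-fold ratio with an interval from 279 to 4229. Chrm3, the muscarinic receptor, had 0 UMIs in the acinar-marker cells and 383 in the others, which is 2.96 CPM and below the 8.99 CPM that 3 counts make in the acinar-marker cells. Vamp8, a granule SNARE that is also used in many other cells, was lower, at 102 CPM against 231.

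In summed UMIs, genes of the endoplasmic reticulum, where the enzymes are made and folded, were at about the level of the other cells. Of 32 genes in the files, 25 passed the filter and all 25 lay within 2-fold, beside 2740 of 3747 over all genes. Their median log2 ratio was -0.19, above the -0.64 of all genes. Hspa5 (BiP), the main chaperone of the compartment, stood at 623 CPM against 561. The median depended on the totals used and on which cells were included. In the same cells it was 0.20 when CPM were computed without the acinar and mitochondrial genes. It was -1.11 without the 13 cells that also carried markers of another type. Genes as a whole also moved under these settings, as given in the closing section, so these 2 medians are not to be read against -0.64. Pdia2 and Erp27, which are made mainly in the pancreas, were the exceptions, though both were too low to pass the filter. Pdia2 had 31 UMIs in 20 cells against 17 UMIs in all others (706-fold, 379 to 1360), and Erp27 had 28 UMIs in 21 cells against 44 (246-fold, 148 to 405). In the integrated stress response list, 3 of 9 genes passed the filter and all 3 lay within 2-fold, beside 2740 of 3747 over all genes. Atf4 stood at 74.9 CPM against 138.

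Duct and metaplasia genes were lower in the acinar-marker cells than in the rest of the tumor. Of 17 genes, 12 passed the filter, 0 were at least 2-fold higher and 7 were lower, beside 2.8% and 24.1% of all genes. The median log2 ratio was -1.35, beside -0.64 over all genes. Spp1 (osteopontin) stood at 1103 CPM against 4055 (log2 ratio -1.88), Krt18 at 647 against 1793 (-1.47), Krt8 at 536 against 1731 (-1.69) and Krt19, a duct keratin, at 171 against 664 (-1.95). Sox9, a regulator of duct fate, had 19 UMIs in 8 of the 100 cells. Clu (clusterin) was within 2-fold, at 4253 CPM against 6576, and was seen in 91 of the 100 cells. The other cells include many duct-like tumor cells. The weight given to each cell also mattered: with every cell weighted alike, the median was -0.73. More genes as a whole were at least 2-fold lower under that weighting, so -0.73 is not to be read against -0.64.

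**Figure D2:**
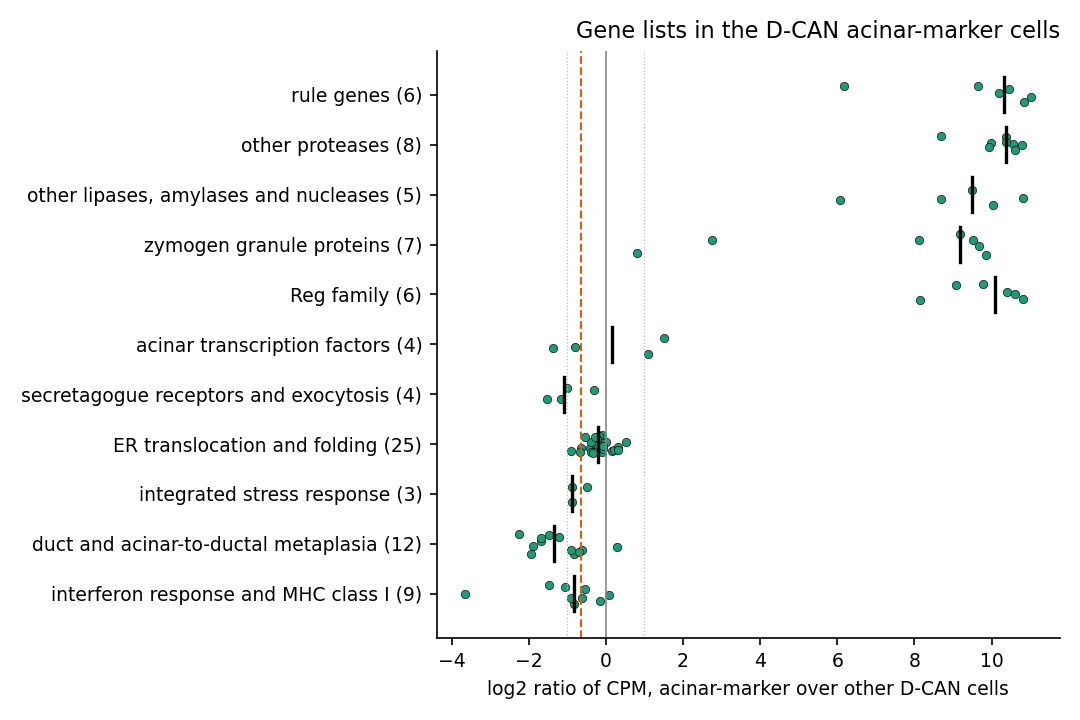
Each point is a gene that passed the filter, placed by its log2 ratio of CPM between the acinar-marker and the other cells of the D-CAN library, with gene lists as rows and the number of genes in parentheses. Black bars are list medians, dotted lines mark 2-fold, and the dashed line is the median of all genes at -0.64; the first 5 lists lie mostly between 8 and 11 and the others around 0 or below.

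Interferon genes were near the level of all genes. Of 13 interferon response and MHC class I genes, 9 passed the filter. Of these, 0 were higher and 3 were lower, beside 2.8% and 24.1% of all genes. The median log2 ratio was -0.81, beside -0.64 over all genes. Gbp2, an interferon-induced GTPase, had 2 UMIs in the acinar-marker cells against 86.7 CPM in the others, and B2m lay within 2-fold (-0.53), with 52.8% of its UMIs in a single barcode.

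The 8 genes with the lowest log2 ratios, with 1 CPM added to each level, were Pcdh9, Slco2a1, Saa3, C1qb, Sprr1a, Osbpl6, Aldh1a3 and Lyz2. Pcdh9, a protocadherin, had 0 UMIs in the acinar-marker cells and 55.7 CPM in the others, which is 6.19-fold lower when the former are set to 3 counts. Slco2a1, a prostaglandin transporter, had 1 UMI against 114 CPM (ratio 0.0263, 0.000665 to 0.146), and Saa3, an acute-phase protein, had 1 UMI against 88.0 CPM. Lyz2 (lysozyme) and C1qb, both macrophage genes, had 9 UMIs in 6 cells and 2 UMIs, against 350 and 130 CPM. Aldh1a3, which makes retinoic acid, and Sprr1a, a squamous gene, had 2 UMIs each, and Osbpl6 had 1. Against cells with at least 3 KPC tumor cell markers, in place of all other cells, Lyz2 had a log2 ratio of 0.10.

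Nupr1, a stress-induced gene known to be switched on in acinar cells during pancreatitis, was in neither list nor ranking. It is named after its values were seen, and unlisted genes with larger ratios exist. Outside the rule, 24 of the 30 genes at least 8-fold higher were in the lists, and Nupr1 lay below 8-fold. It reached 2368 CPM in 80 of the 100 cells against 323 CPM in the others (log2 ratio 2.87, 7.32-fold, 6.81 to 7.85), with 19.0% of its UMIs in the largest barcode. Its log2 ratio was 3.47 without the cells that carried markers of another type and 4.43 with every cell weighted alike.

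The D-CAN acinar-marker cells were not uniform. Of the 100, 18 had 1% to 3% of their UMIs on the rule genes, 24 had 3% to 10%, 54 had 10% to 30%, and 4 had more, up to 33.0%. The median mitochondrial share in these classes was 32.8%, 10.5%, 0.630% and 0.0863%, and the number of cells over 20% mitochondrial UMIs was 10, 7, 3 and 0. The rule genes and mitochondrial genes share the same total in each cell, so the share of one limits the other. The proteases outside the rule were higher from class to class, from 0.680% of UMIs to 3.25%, 8.61% and 19.7%. The Reg genes did so from 0.686% to 3.08% and 8.93% and stood at 6.74% in the highest class. Malat1 was lower from class to class, at 1.06%, 0.928%, 0.177% and 0.0198% of UMIs. Cells that carried markers of another type, described below, held 73.9% and 74.0% of the UMIs of the first 2 classes, and without them Malat1 stood at 0.856%, 0.807%, 0.181% and 0.0198%. Genes of the endoplasmic reticulum had 0.760%, 0.420%, 0.319% and 0.218% of UMIs, but this order was lost without those cells, at 0.200%, 0.266%, 0.314% and 0.218%. Pdia2 and Erp27 had most of their UMIs in the cells with over 10% of UMIs on the rule genes, 25 of 31 and 18 of 28.

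**Figure D3:**
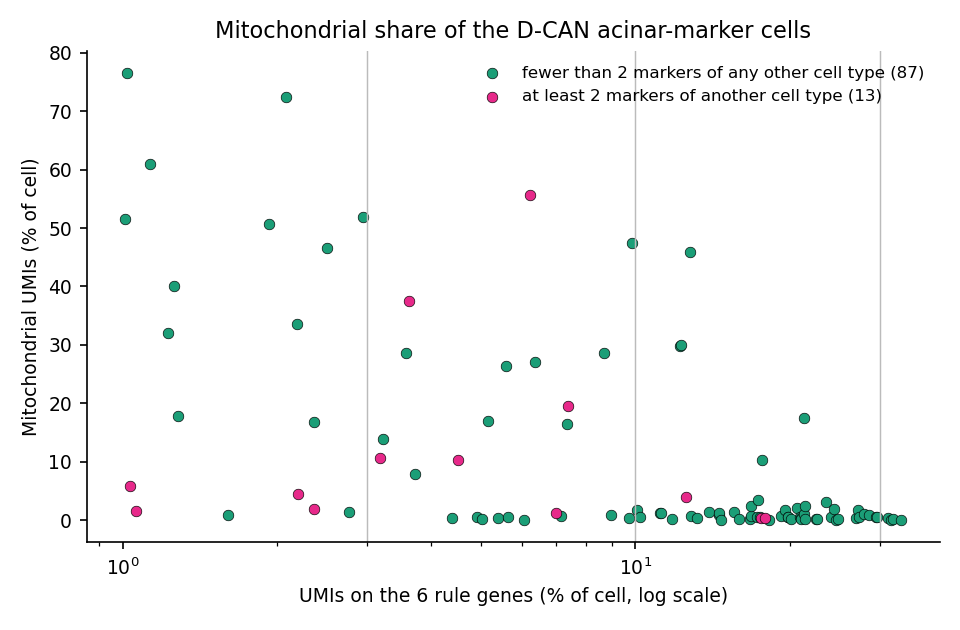
Each point is 1 of the 100 acinar-marker cells of the D-CAN library, with the percentage of UMIs on the 6 rule genes on a log axis and the percentage of mitochondrial UMIs; vertical lines mark 3, 10 and 30%, and pink points the 13 cells with at least 2 markers of another type. Cells over 20% mitochondrial UMIs lie mostly below 10% on the rule genes.

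Some barcodes held RNA of other cell types beside the acinar RNA. At least 2 markers of another type were found in 13 of the 100 cells: 6 had fibroblast markers, 5 KPC tumor cell markers, 2 T cell markers and 1 neutrophil markers, with 1 cell counted under 2 of these. The 13 included 8 of the 13 barcodes over 5000 UMIs and held 54.1% of all UMIs of the acinar-marker cells. The largest barcode, with 73682 UMIs and 8011 genes, had 3 KPC and 2 fibroblast markers, 7.01% of UMIs on the rule genes, and 22.1% of all the UMIs. Collagen RNA was concentrated in a different barcode, with 87.2% of the Col1a1 UMIs in a single cell. Likewise, 1 cell held 83.4% of the Col3a1 UMIs, and the largest barcode held 0.233% of them. Of the whole marker lists, 4 of 5 fibroblast genes passed the filter and lay within 2-fold. The macrophage and KPC lists each had 3 of 6 genes that passed, all lower, and both neutrophil genes that passed were lower. No T cell, B cell, endothelial or erythroid gene passed. Over all genes that passed, 2740 of 3747 lay within 2-fold and 24.1% were at least 2-fold lower, and these marker lists hold few genes. Adgre1, Cdh5, Kdr, Ms4a1, Csf3r and all 4 globin genes were at 0. Of 9 islet genes only Ins1 was seen, with 1 UMI.

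Without these 13 cells the acinar genes stood as high, and more of the other genes were lower. The proteases outside the rule had a median log2 ratio of 10.99 without them and the Reg genes 10.76. The number of genes at least 2-fold higher was 77 in place of 105, and the number at least 2-fold lower was 2616 in place of 902.

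The 14 acinar-marker cells of the Pdgfrb-TK libraries were of like size and had lower shares on the rule genes, with medians of 2.17% (Pdgfrb-TK/GCV) and 5.67% (Pdgfrb-TK/PBS) beside 12.7% in D-CAN. In Pdgfrb-TK/GCV the 7 cells had 556 to 3387 UMIs and 1.65%, 1.80%, 2.02%, 2.17%, 2.58%, 6.17% and 18.4% on the rule genes. In Pdgfrb-TK/PBS they had 542 to 2164 UMIs and 3.29%, 3.87%, 5.31%, 5.67%, 12.7%, 18.8% and 29.6%. All 14 lay within the D-CAN range, and 5 of the 7 in Pdgfrb-TK/GCV lay under 3%. Their mitochondrial shares were at most 3.57%, and in the Pdgfrb-TK/GCV library 1 of the 7 cells had at least 2 markers of another type, against 0 of 7 in Pdgfrb-TK/PBS.

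The make-up of the acinar RNA is a description of the cells that the rule genes chose, Ctrb1 and Prss2 among them, and in the Pdgfrb-TK libraries it rests largely on a single cell each. That cell held 77.5% of the acinar UMIs in Pdgfrb-TK/GCV (1547 of 1995) and 56.8% with PBS in that strain (1346 of 2368), and the largest D-CAN cell held 17.5%. As a share of the UMIs on the 42 genes (all listed enzyme, granule and Reg genes but Dmbt1, Tff2 and a gene not present in the files), Ctrb1 made up 28.6% in the D-CAN cells (28.3% to 29.0%), 24.2% in Pdgfrb-TK/GCV (22.3% to 26.2%) and 31.6% in Pdgfrb-TK/PBS (29.7% to 33.5%). Without those 3 cells, chosen after seeing the data, Ctrb1 was 27.7%, 21.2% and 25.05%, so the order of D-CAN and Pdgfrb-TK/PBS turned. Prss2 made up 11.9%, 8.27% and 11.02%, and 12.1%, 6.03% and 12.8% without them. The Reg family made up 20.8%, 27.2% and 20.4%, and 20.6%, 21.7% and 11.4% without them. Cela3b was lower in D-CAN, at 2.50% (2.38% to 2.63%), than in Pdgfrb-TK/GCV at 4.96% (4.05% to 6.01%) and Pdgfrb-TK/PBS at 7.47% (6.45% to 8.61%). Without those cells it was 2.64% (2.51% to 2.78%), 4.24% (2.57% to 6.54%) and 8.32% (6.70% to 10.2%), and the D-CAN and Pdgfrb-TK/GCV intervals overlapped. Spink1 stood the other way round, at 0.782% in D-CAN (0.715% to 0.854%), 0.201% in Pdgfrb-TK/GCV (0.0547% to 0.513%) and 0.0845% in Pdgfrb-TK/PBS (0.0102% to 0.305%), where the Pdgfrb-TK shares rest on 4 and 2 UMIs. Without those cells its intervals overlapped, at 0.701% (0.632% to 0.777%), 0.223% (0.00565% to 1.24%) and 0.196% (0.0237% to 0.705%). Clps was 5.41% in Pdgfrb-TK/GCV against 1.91% and 1.73%, and in 1 of those 7 cells it reached 58.4%. Without the leading cells it was 20.3% in Pdgfrb-TK/GCV, 2.12% in D-CAN and 2.25% in Pdgfrb-TK/PBS. The 29 D-CAN barcodes under 200 genes were close to the counted D-CAN cells, with Ctrb1 at 28.4%, Prss2 at 11.3% and the Reg family at 19.0%. These intervals do not cover the spread between animals, which single libraries cannot show.

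**Figure D4:**
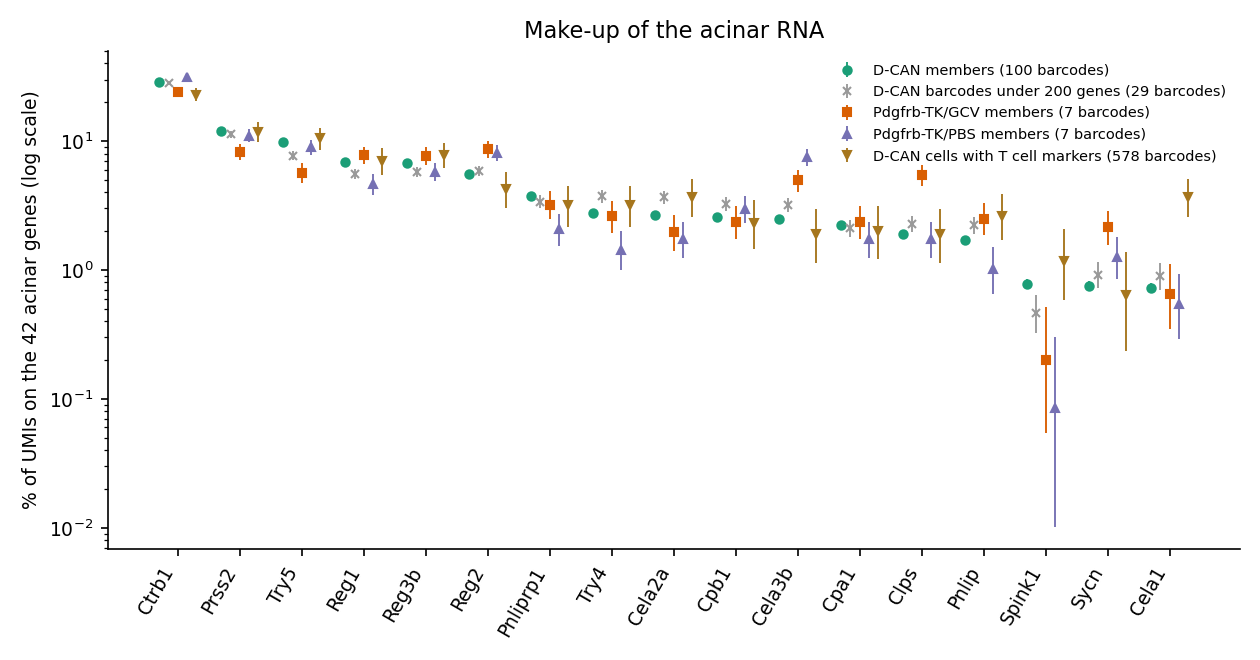
The percentage of UMIs on the 42 acinar genes that fell on each of 17 genes (log axis), for the acinar-marker cells of 3 libraries, the 29 D-CAN barcodes under 200 genes and the 578 D-CAN cells with T cell markers; bars are 95% Clopper-Pearson intervals. Ctrb1, a rule gene, has the highest share in every set, and the Pdgfrb-TK values rest largely on 1 cell each.

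Acinar RNA was also seen outside these cells, and most in the D-CAN library. There the acinar-marker cells held 79.7% of the UMIs on the 42 genes (63394, with 16164 in the other kept cells). WT/PBS, with 0 acinar-marker cells, had 7721 UMIs on these genes, of which 3474 fell on Cela1, 1482 on Amy1 and 1193 on Try5. Outside the acinar-marker cells, Ctrb1, Prss2, Cpa1, Pnlip and Cel together reached 40.9 CPM in D-CAN (39.8 to 42.03), 4.92 CPM in Pdgfrb-TK/GCV (4.54 to 5.32), 3.11 CPM in Pdgfrb-TK/PBS (2.74 to 3.51) and 0.817 CPM in WT/PBS (0.681 to 0.972). The order of the libraries was that of their numbers of acinar-marker cells, apart from the Pdgfrb-TK libraries, which had 7 each. Cell types that do not make these enzymes carried them too: in D-CAN the level was 99.5 CPM in the 578 cells with T cell markers, 60.4 in those with macrophage markers, 25.5 in those with KPC tumor cell markers, and 181 in the barcodes under 200 genes that did not meet the gene rule. These classes differed in depth, with medians of 4070.5, 5792.5 and 30923 UMIs in T cell-, macrophage- and KPC-marker cells. A Ctrb1 UMI was found in 7.44%, 11.5% and 15.6% of them, and in 3.66%, 3.07% and 1.53% when thinned to 1000 UMIs. The order of CPM is thus not an order of RNA per cell. A Ctrb1 UMI was found in 10.4% of the other kept cells of D-CAN (median 4596.5 UMIs) and in 7.44% of its T cell-marker cells (median 4070.5 UMIs). When cells were thinned to 1000 UMIs, leaving out 869 and 4 shallower cells, the shares were 2.98% and 3.66%, so the share in the other cells was no higher than in T cell-marker cells. In WT/PBS the thinned share in other kept cells was 0.00969%, with 1309 left out, and 0.310% before thinning. The make-up in the D-CAN T cell-marker cells was near that of the acinar-marker cells for Prss2 (11.9%) and the Reg family (20.7%), and lower for Ctrb1 (23.0%, 20.3% to 25.8%).

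Cela1 was again different. Outside the acinar-marker cells it stood at 18.2 CPM in D-CAN, 22.4 CPM in WT/PBS, 23.1 CPM in Pdgfrb-TK/GCV and 29.8 CPM with PBS in the same strain, so the library with the most acinar RNA had the lowest level. Try5, at 9.66, 7.68, 9.92 and 6.73 CPM in the same order, and Pla2g1b, at 4.08, 2.65, 1.496 and 5.32 CPM, were likewise present in every library. Cela1 made up 0.726% of the 42-gene UMIs in the D-CAN acinar-marker cells, 14.6% in the other D-CAN cells and 45.0% in WT/PBS. Reg3b was higher outside the acinar-marker cells in Pdgfrb-TK/GCV, at 10.6 CPM, than in D-CAN, at 7.25 CPM, and it stood at 1.10 CPM in Pdgfrb-TK/PBS and 0.515 CPM in WT/PBS.

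**Figure D5:**
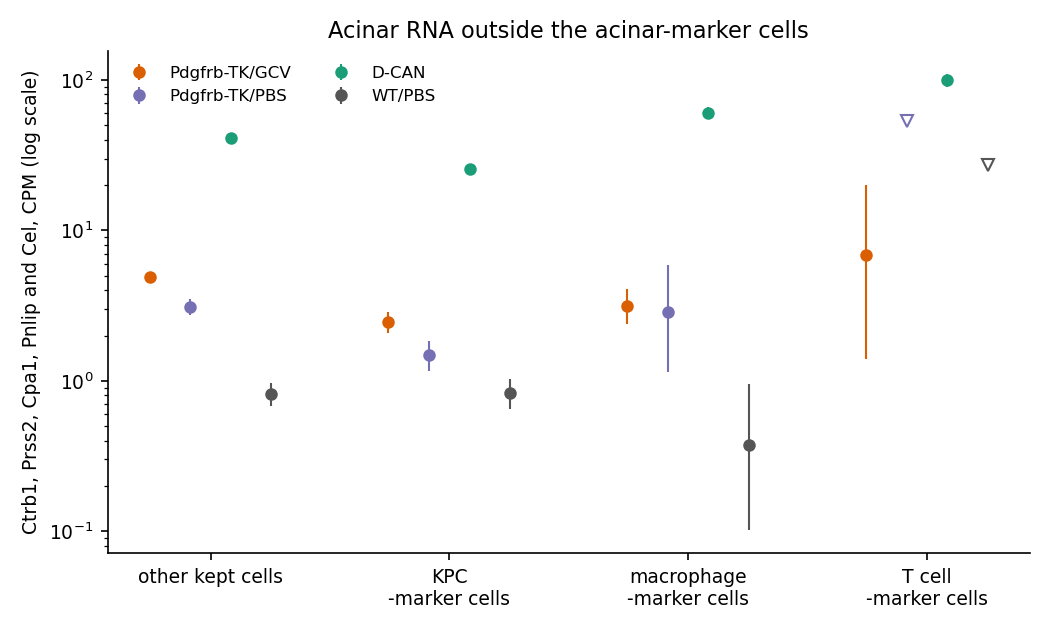
The summed CPM of Ctrb1, Prss2, Cpa1, Pnlip and Cel (log axis) in cells that were not acinar-marker cells, by library and by the cell type markers they carried; bars are exact 95% Poisson intervals and open triangles the upper limit where no UMI was seen. The D-CAN library is the highest in every class, and in T cell-marker cells of Pdgfrb-TK/PBS and WT/PBS 0 UMIs were seen.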

How the data were processed

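Suspensions of digested tumors, pooled by treatment, were run as 1 library per condition with 10x Genomics Chromium 3′ kits. The authors deposited filtered matrices of raw UMI counts per gene and barcode. Their methods give the mm10 genome, the STAR aligner and an earlier version of Cell Ranger than the 7.0.0 in the file headers. The protocol text in the labels describes nuclei of another tissue, so libraries were matched to conditions by their titles. Settings of the filter that chose the barcodes were not given in the sources used here, and 5 reporter entries in the matrices were not used.

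Cells with at least 200 genes were kept, and UMIs were summed over the acinar-marker cells and over the other kept cells of a library, scaled to CPM, and compared as log2 ratios with a pseudocount of 1 CPM. Genes needed 100 UMIs in both sets together and 50 CPM in the higher set. Intervals were Clopper-Pearson (shares), exact Poisson (CPM) and exact conditional binomial (ratios), all at 95%. PCR duplicates were collapsed by the UMIs. A floor of 3 counts stood for 0. Cells with at least 2 markers of T cells, B cells, macrophages, neutrophils, endothelial cells, fibroblasts or KPC tumor cells counted as carrying another type, and the outside RNA was read in cells with at least 2 T cell markers, 3 macrophage markers or 3 KPC markers. Doublets were kept. Scrublet's own threshold called 2 cells each in D-CAN and Pdgfrb-TK/GCV and 0 in each PBS library, too few to have worked, so the 8% highest scores were removed as an alternative. Genes named were the rule genes, list genes, and the 15 highest and 8 lowest ratios outside the rule. The acinar-marker cells and the lists were chosen with earlier results of these data known, and Dmbt1 and Tff2 were left out of the 42-gene sum after their values were seen. Gene positions came from GENCODE M21 (mm10). The comparison was also run on simulated sums drawn from the pooled profile of the other D-CAN cells. These sums had no spread between cells, so the run could not show the effect of single large barcodes. Python 3.11.15, numpy 2.4.6, scipy 1.17.1, pandas 2.3.3, scanpy 1.11.5 and matplotlib 3.10.9 were used.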

Additional observations from a re-analysis of the deposited data

How the results depend on the processing

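Among the alternatives tried, the D-CAN library kept the largest share of acinar-marker cells and WT/PBS kept 0. The D-CAN share was 0.318% with a minimum of 500 genes, 0.727% with at least 5% and 1.27% with at least 0.5% of UMIs on the rule genes, 0.531% with all 6 genes required, 0.615% with cells thinned to 1000 UMIs and 1.20% with no minimum of genes, an alternative chosen after seeing the data. Pdgfrb-TK/GCV was at 0.0163% with at least 5% on the rule genes and at 0.00814% with all 6 genes, and Pdgfrb-TK/PBS at 0% with 500 genes and 0.0224% after thinning. A limit of 20% mitochondrial UMIs and removal of the highest Scrublet scores, which took 17 of the 100 D-CAN cells, left each share within its interval. The number of genes at least 2-fold higher (105) was 217 when CPM left out acinar and mitochondrial genes, 200 against KPC-marker cells alone, and 1030 with a minimum of 10 UMIs only. The number at least 2-fold lower (902) was 397, 1071 and 5195 under these, 559 with 500 genes, 1876 with at least 5% on the rule genes, 2048 with every cell weighted alike, 2616 without cells carrying another type's markers, and 1485 without the largest barcode, also chosen after seeing the data. The median log2 ratio of the endoplasmic reticulum list (-0.19) was 0.20 without acinar and mitochondrial genes in the totals, -0.57 with at least 5% on the rule genes and -1.11 without cells carrying another type's markers. That of the duct list (-1.35) was -0.85 without those genes and -0.73 with every cell weighted alike. The median over all genes is not given for these alternatives, so these list medians cannot be set against the -0.64 of the main setting. The 15 highest ratios stayed between 7.28 and 11.56 over all 11 alternatives, and 7 of the 8 lowest stayed negative; Lyz2 was 0.10 against KPC-marker cells, and Gata4 was -0.0059 with at least 5% on the rule genes. All 6 rule genes outside the acinar-marker cells, Cela1 included, gave 59.2 CPM in D-CAN, 23.2 in WT/PBS, 28.1 in Pdgfrb-TK/GCV and 32.9 in Pdgfrb-TK/PBS. Without cells that had 2 or more of them the values were 25.7 in D-CAN, 25.5 in Pdgfrb-TK/GCV and 31.4 in Pdgfrb-TK/PBS, so D-CAN was no longer the highest. Before that removal Cela1 alone stood at 18.2 CPM in D-CAN and at 22.4 to 29.8 CPM in the other libraries. The alternative removes cells by the measured genes themselves, and the sum without Cela1 was not run this way. With a minimum of 500 genes D-CAN was 56.3 CPM. Beyond what each alternative leaves out, the cause was not tested. No paired analysis was possible because each condition is 1 library. Low counts limit the regulators and receptors, most of which had 10 or fewer UMIs.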
